A study of Homo sapiens with 9 samples.

Results

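The exon counts of 13922 genes were compared between MDH2 immunoprecipitation (IP) and size-matched input (SMI) in an eCLIP experiment, in which RNA cross-linked to a protein by UV light is recovered with an antibody and sequenced. The genes were chosen by summing all exon windows of a gene and keeping the genes whose sum reached 10 counts in 3 or more of the 6 libraries, out of 35308 gene identifiers with windows. Of the genes kept, 11538 were protein-coding, 1051 were lncRNA genes and most of the rest were small RNA genes, pseudogenes and mitochondrially encoded genes, with 207 identifiers not matched in the annotation used and 128 of other types. The cells were Huh7, a human hepatocellular carcinoma line, with no genetic change or treatment named in the labels, and total cell lysates were used. There were 3 libraries of MDH2 IP, 3 of SMI, which is lysate RNA cut from the same gel range without IP, and 3 of IP with an isotype-matched IgG. The labels give 14 PCR cycles for the MDH2 IP and IgG IP libraries, and 9 for SMI, so amplification and IP cannot be told apart in any comparison with SMI. The labels do not say that replicates came from separate cultures, and p-values then measure the spread between these libraries.

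MDH2 is the mitochondrial malate dehydrogenase, an enzyme of the citric acid cycle and of the malate-aspartate shuttle, made in the cytosol from a nuclear gene and imported into the matrix. Metabolic enzymes have repeatedly been recovered in screens for RNA-binding proteins although they carry no classical RNA-binding domain. An mRNA can be cross-linked on its exons after splicing, or on introns while it is still a nuclear precursor, and sums over a whole gene do not show where in the gene a protein sat.

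Cross-link sites on exons summed to between 3249743 and 5077928 window counts in the MDH2 IP libraries and to between 3651574 and 4657825 in SMI, where a site is counted in up to 3 overlapping windows. Levels below are CPM, the count scaled to a total of 1e+06 exon counts, after TMM scaling, so each is relative to the other RNAs of its library and not an amount recovered. Summed levels of cell type markers are the exception, scaled to total exon counts without TMM. All 15 hepatocyte marker genes on the list used were tested, with a summed level of 11638 to 15011 CPM in MDH2 IP and 12543 to 15946 CPM in SMI. Of the 15 blood cell markers, 2 were tested and 6 were at 0 in all 6 libraries, among them HBA1, HBB, CD79A and MS4A1. The blood cell markers summed to 127 to 210 CPM in MDH2 IP and 108 to 155 CPM in SMI, so they were not absent. Of the 10 endothelial markers, 1 was tested and KDR, TEK and EMCN were at 0, and of the 10 fibroblast markers, 5 were tested and DCN and THY1 were at 0. The endothelial markers summed to 7.69 to 13.65 CPM in MDH2 IP and 10.09 to 10.73 CPM in SMI. The fibroblast markers summed to 42.2 to 61.25 CPM and 43.54 to 61.04 CPM.

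At the exon level 1197 genes were higher and 1496 genes lower in MDH2 IP than in SMI in edgeR's quasi-likelihood test at an adjusted p of at most 0.05, which is 8.6% and 10.7% of the genes tested. With total exon counts in place of TMM, which raised the median log2 fold change of all genes from 0.005 to 0.167, the split was 1965 higher and 1064 lower. Among protein-coding genes the calls were almost even, with 1031 higher (8.94%) and 967 lower (8.38%), and the median log2 fold change was 0.04. Most of these changes were small, and 219 protein-coding genes (1.9%) were higher and 311 (2.7%) lower by at least 2-fold. Over all genes these were 357 (2.56%) and 805 (5.78%). Without regard to size, every MDH2 IP library lay above every SMI library for 19.6% of the protein-coding genes and below every one for 18.0%. A further fit with an offset for GC content, called the GC fit below, is described with the GC values. When each of the 6 libraries was left out in turn, 254 of the 1031 higher and 300 of the 967 lower protein-coding genes were called every time. The totals were most sensitive to SMI replicate 1, without which 387 genes were higher and 652 lower, and to MDH2 IP replicate 1, without which 499 were higher and 785 lower. Leaving out SMI replicate 2 gave 989 lower genes and leaving out MDH2 IP replicate 2 gave 773 higher genes.

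The mRNAs of the cytosolic ribosomal proteins, the protein parts of the ribosome, were lower in MDH2 IP as a group. Of 80 tested, 37 fell and 0 rose, against 8.38% of all protein-coding genes that fell, and 74 of the 80 had a log2 fold change below 0, with a median of -0.53. Most of these mRNAs belong to the class known as TOP mRNAs, which begin with a C followed by a run of pyrimidines, a feature through which their translation is controlled together. Their starts are shown because the group was lower together, and each line gives 15 bases before and 15 bases from the start that RefSeq lists on GRCh38.p14, with the run of pyrimidines around the start in capitals. The first is RPSA, chr3:39406705-39406734 on the plus strand, followed by RPL21, chr13:27251543-27251572 plus, RPS23, chr5:82278340-82278369 minus, and RPLP0, chr12:120201097-120201126 minus. TPT1, chr13:45341169-45341198 minus, EEF1A1, chr6:73521018-73521047 minus, and EIF4A2, chr3:186783562-186783591 plus, are other genes of protein synthesis or growth that were lower. NCL, chr2:231464470-231464499 minus, and KMT2D, chr12:49060780-49060809 minus, stood on the higher side and have no such run at the listed start. The absence of a run was not particular to higher genes, and GNG12, chr1:67833453-67833482 minus, and KITLG, chr12:88580457-88580486 minus, which were among the lowest genes, have none either.
RPSA: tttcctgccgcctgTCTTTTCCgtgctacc
RPL21: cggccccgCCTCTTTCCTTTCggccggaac
RPS23: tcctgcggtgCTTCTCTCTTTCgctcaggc
RPLP0: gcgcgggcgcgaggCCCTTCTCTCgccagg
TPT1: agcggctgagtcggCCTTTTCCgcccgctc
EEF1A1: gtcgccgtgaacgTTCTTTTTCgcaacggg
EIF4A2: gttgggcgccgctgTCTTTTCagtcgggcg
NCL: tcagtctttcgcctcagtctcgagctctcg
KMT2D: gggcgggatccctccgccgctccgctccaa
GNG12: cgccccgcccaccccagcgaggcggagccg
KITLG: cggctcagcagccgggcttcgctcgccgcc

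Of the 53 tested ribosomal protein genes with a single listed start, 38 (71.7%) had a C there followed by 4 pyrimidines, read on the gene's strand. Of these 38 genes 22 were lower, with a median log2 fold change of -0.60, and of the other 15 genes 3 were lower, with a median of -0.24. The median log2 ratio of IgG IP to SMI was -0.87 for the 38 and -0.59 for the 15. That of MDH2 IP to IgG IP was 0.23 and 0.26. Among the other protein-coding genes, 323 of 6573 (4.91%) had this start and 13.9% of them were lower, against 8.11% of those without it. Over all 35116 listed promoters the share was 4.07%. A match describes the letters at the listed start only.

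RPLP0, a protein of the ribosomal stalk, had 247, 278 and 299.8 CPM in MDH2 IP against 763, 950.5 and 767 CPM in SMI. RPSA, a protein of the small subunit, had 384, 525 and 472 CPM against 1267, 1251 and 1190 CPM. RPL21, a protein of the large subunit, had 53.4, 60.0 and 61.1 CPM against 161, 191 and 178 CPM. The groups were far apart for each of these genes, with every MDH2 IP library below every SMI library. The log2 fold changes were -1.59 (SE 0.15, adjusted p = 0.000174) for RPLP0, -1.43 (SE 0.16, adjusted p = 0.000345) for RPSA and -1.60 (SE 0.15, adjusted p = 0.000131) for RPL21, all by edgeR. Each of these calls held with any library left out. RPS23, another small subunit protein, had 120.3, 132 and 146 CPM against 316, 395 and 274 CPM, a log2 fold change of -1.31 (SE 0.17, edgeR adjusted p = 0.00105).

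Not every ribosomal protein mRNA was lower. RPL41 had a log2 fold change of 0.03 and RPS26 one of 0.19, neither of which passed the test. The whole group took 1.71% ± 0.16 of exon counts in MDH2 IP (SD, n = 3) and 2.32% ± 0.20 in SMI (n = 3), and the lowest SMI library at 2.16% lay above the highest MDH2 IP library at 1.90%. Many of these genes hold snoRNA genes, and in RPSA, RPL21 and RPL39 these lie in annotated exons on the same strand, where their counts cannot be told apart. The 53 genes with no snoRNA gene inside had 21 lower and a median of -0.51, and the 27 with one had 16 lower and a median of -0.62. Leaving out the 3 fullest exon windows of each gene gave 33 lower genes, and moved RPSA to -1.28 and RPL21 to -1.09, both still called. RPL39 was the lowest gene of the group at -1.68, but these 3 windows held 46.6% of its counts, and without them its log2 fold change was -0.89 with an edgeR adjusted p of 0.085. With 1 library left out the number of lower genes ranged from 21 to 42, with 21 without SMI replicate 1 or without MDH2 IP replicate 1 and 23 without MDH2 IP replicate 2, and 21 of the 37 calls held in all 6 of these fits.

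TPT1, which encodes a translationally controlled growth protein, followed the ribosomal proteins with 318, 324 and 311 CPM in MDH2 IP against 966, 1208 and 815 CPM in SMI. Its log2 fold change was -1.65 (SE 0.17, edgeR adjusted p = 0.000247), with no overlap between the groups. The snoRNA gene SNORA31 lies in an annotated exon of TPT1, and without its 3 fullest windows TPT1 stood at -1.59 and was still called. Of the 12 translation elongation factors tested, 4 fell (EEF1A1, EEF1B2, EEF1G and EIF5A2) and 0 rose, with a median of -0.37. The GC fit called 1 of the 12, and 1 of the 4 calls held with each library left out. EEF1A1, which brings charged tRNAs to the ribosome, had 1184, 1349 and 1164 CPM against 2023, 2685 and 1496 CPM. All its MDH2 IP libraries were below all SMI libraries, but its log2 fold change of -0.75 (edgeR adjusted p = 0.033) was called in 1 of the 6 fits with a library left out and in neither the GC fit (-0.49) nor with total counts (-0.58). Of 39 initiation factors 5 rose and 9 fell, and of 36 aminoacyl-tRNA synthetases, which charge tRNAs, 4 rose and 0 fell with a median of 0.13.

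Genes of ribosome biogenesis, which build the ribosome in the nucleolus, did not follow the ribosomal proteins. Of 65 tested, 9 rose and 0 fell, against 8.94% and 8.38% of all protein-coding genes, with a median log2 fold change of 0.27. The GC fit called 4 higher and 0 lower, and 1 of the 9 calls held with each library left out. BMS1, a GTPase of small subunit assembly, had 109, 107 and 115 CPM in MDH2 IP against 53.8, 48.8 and 60.4 CPM in SMI, a log2 fold change of 1.02 (SE 0.15, edgeR adjusted p = 0.0022). NCL, which encodes the nucleolar protein nucleolin, had 786, 645 and 777 CPM against 367, 359 and 504 CPM, a log2 fold change of 0.84 (SE 0.17, edgeR adjusted p = 0.00949). The groups did not overlap for either gene, and the call of NCL was lost without SMI replicate 1, at 0.76. NOC4L rose most of the 9, by 1.52 on the log2 scale, but was not called in the GC fit (0.95), and the others were NOP14, PES1, RRP1, NOP2, RRP9 and PPAN. The 76 mitochondrial ribosomal protein genes tested, whose proteins make a separate ribosome in mitochondria, had 1 higher and 7 lower and a median of -0.07.

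**Figure D1:**
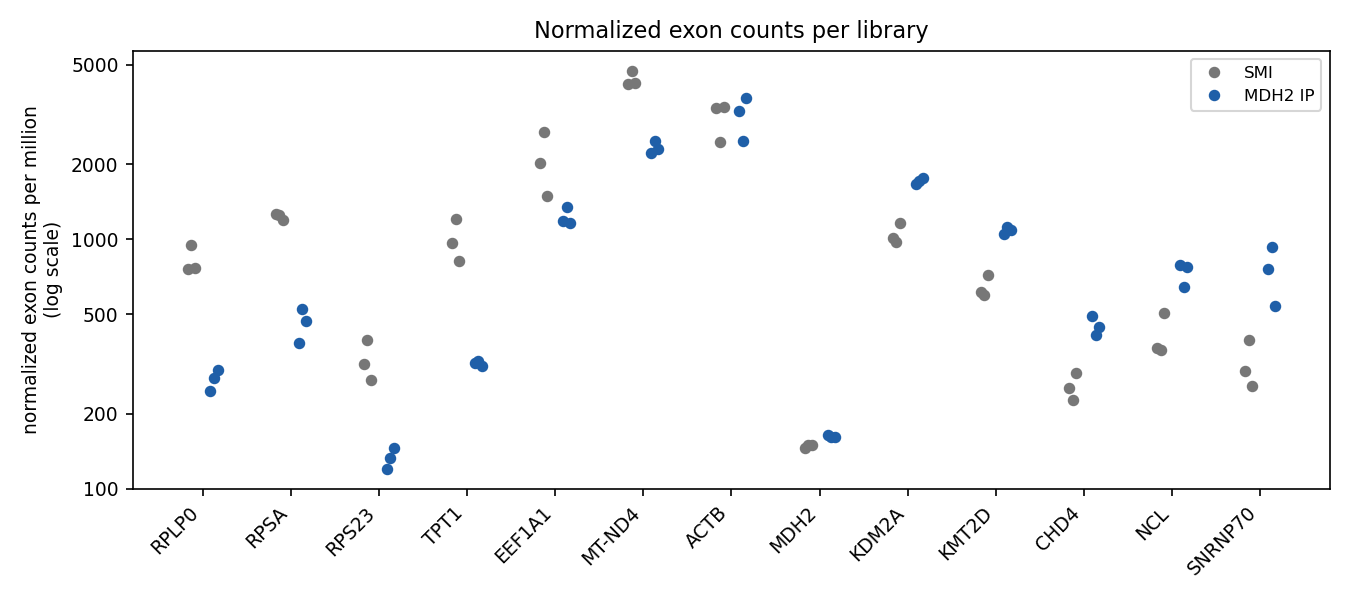
Exon level in CPM on a log axis of selected genes in each of the 3 SMI and 3 MDH2 IP libraries, 1 point a library. RPSA, RPLP0 and TPT1 lie lower in every MDH2 IP library than in every SMI library, and KMT2D and CHD4 lie higher.

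Chromatin regulators, the enzymes and remodellers that modify or move nucleosomes, held more higher genes than any other list used. Of 73 tested, 27 rose and 0 fell, against 8.94% of protein-coding genes that rose, and 64 had a log2 fold change above 0 with a median of 0.47. Their median coding length was 4941 nt, and in the longest of 5 equal bins of coding length 17.7% of protein-coding genes rose. The list took 1.74%, 1.71% and 1.62% of exon counts in the MDH2 IP libraries and 1.04%, 1.01% and 1.125% in SMI, with no overlap. KMT2D, a histone H3 lysine methyltransferase, had 1052, 1115 and 1091 CPM against 613, 599 and 717 CPM, a log2 fold change of 0.76 (SE 0.14, edgeR adjusted p = 0.00579). CHD4, the remodelling ATPase of the NuRD complex, had 494, 413 and 446 CPM against 253, 227 and 290.0 CPM, a log2 fold change of 0.81 (SE 0.15, edgeR adjusted p = 0.00598). Both genes were higher in each MDH2 IP library than in any SMI library, and both calls held with any library left out. Its relative CHD3 rose by 1.01 (SE 0.17, edgeR adjusted p = 0.00384). KDM2A, a histone H3 lysine demethylase, had 1665, 1709 and 1753 CPM against 1012, 976 and 1158 CPM, a log2 fold change of 0.70 (SE 0.14, edgeR adjusted p = 0.00773), and was no longer called without SMI replicate 1. With a library left out the number of chromatin regulators called ranged from 6 to 29, and 5 of the 27 calls held in all 6 fits. The number was 6 without SMI replicate 1, 13 without SMI replicate 2, 10 without MDH2 IP replicate 1 and 15 without MDH2 IP replicate 2. The GC fit called 7 of them, with 0 lower and a median of 0.38. CHD4 was called in that fit at 0.72, and KMT2D (0.35), KDM2A (0.52) and CHD3 (0.78) were not.

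The messages encoded in the mitochondrial genome, transcribed in the compartment where mature MDH2 resides, were lower in MDH2 IP. All 13 had a log2 fold change below 0, with a median of -0.51, and 7 fell and 0 rose, against 10.7% of all genes that fell. MT-ND4, a subunit of complex I, had 2209, 2473 and 2289.9 CPM in MDH2 IP against 4174, 4738 and 4238 CPM in SMI, with no overlap and a log2 fold change of -0.92 (SE 0.14, edgeR adjusted p = 0.00285). MT-CYB, the cytochrome b of complex III, fell by 0.76 on the log2 scale (edgeR adjusted p = 0.00602). MT-CO1, a subunit of cytochrome oxidase, had a log2 fold change of -0.43 and did not pass (adjusted p = 0.0933). The 13 messages together took 1.40% ± 0.08 of exon counts in MDH2 IP (SD, n = 3) and 1.91% ± 0.14 in SMI (n = 3), and without MDH2 IP replicate 1 the number of lower messages was 3. The larger mitochondrial rRNA, MT-RNR2, fell by 1.15 on the log2 scale (edgeR adjusted p = 0.00385), from 65589, 84143 and 82853 CPM in SMI to 30877, 35485 and 38203 CPM. In contrast, 8 mitochondrial tRNA genes rose, led by MT-TY, the tRNA for tyrosine, at 2.28, and the 27 mitochondrially encoded genes tested had 8 higher and 9 lower. MT-TY overlaps MT-TC on the same strand, and counts in shared bases cannot be told apart.

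Nuclear genes whose proteins work in mitochondria did not move as a group. Of 79 respiratory chain genes 4 rose and 4 fell, with a median of -0.10, and of 42 genes of mitochondrial import 3 rose and 4 fell. The citric acid cycle and malate-aspartate shuttle list, to which MDH2 itself belongs, had 31 genes tested, of which 3 rose and 1 fell with a median of -0.07. The risers were SDHA, the flavoprotein of succinate dehydrogenase, at 0.62, PC, the pyruvate carboxylase, at 0.55, and IDH3B, a subunit of isocitrate dehydrogenase, at 0.51, and SDHC, a membrane anchor of succinate dehydrogenase, had -0.77. The calls of the 3 risers were lost in the GC fit, at 0.44, 0.03 and 0.29, and in most fits with a library left out. The MDH2 mRNA had 165, 162 and 161 CPM in MDH2 IP against 145, 150.2 and 149.5 CPM in SMI. The MDH2 IP libraries lay slightly above SMI without overlap, and the log2 fold change of 0.13 (SE 0.13) did not pass the edgeR test (adjusted p = 0.515). The introns of MDH2 were higher, with a log2 fold change of 0.55 (edgeR adjusted p = 0.0307).

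Secretory and liver messages are set beside the 8.94% of all protein-coding genes that rose and the 8.38% that fell. Of 68 plasma protein genes, the main products of hepatocytes, 3 (4.41%) rose and 2 (2.94%) fell, with a median of 0.14. Both shares were below those of all protein-coding genes. CLU, the mRNA of the secreted chaperone clusterin, had 1052, 1323 and 915 CPM in MDH2 IP against 628, 793 and 519 CPM in SMI, a log2 fold change of 0.76 (SE 0.20, edgeR adjusted p = 0.0253) that was called in 2 of the 6 fits with a library left out, those without SMI replicate 2 and without MDH2 IP replicate 3. APOB, the apolipoprotein of very low density lipoprotein and among the nuclear genes with the most exon counts, went the other way with 5084, 5282 and 3972 CPM against 7603, 8211 and 6633 CPM, a log2 fold change of -0.65 (edgeR adjusted p = 0.0278) that was called in 2 of the 6 fits, those without SMI replicate 3 and without MDH2 IP replicate 2. The groups did not overlap for either gene, and the GC fit called neither, at 0.67 and -0.42. Of 40 chaperones of the endoplasmic reticulum 3 (7.5%) rose and 2 (5.0%) fell. Of 46 genes of translocation and glycosylation there 1 (2.17%) rose and 7 (15.2%) fell, with a median of -0.23. Among 171 solute carriers, the membrane transporters, 11 (6.43%) rose and 24 (14.0%) fell. Among 26 genes of cholesterol synthesis 3 (11.5%) rose and 6 (23.1%) fell. In the GC fit 0 genes of translocation and glycosylation and 0 of cholesterol synthesis were called, and 2 solute carriers were higher and 4 lower.

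Lists of the nucleus and the cytosol are set beside the same shares of 8.94% and 8.38%. Of 47 spliceosome genes 9 (19.15%) rose and 1 (2.13%) fell, with a median of 0.09. The GC fit called 3 higher and 0 lower, and 2 of the 9 calls held with each library left out. SNRNP70, a protein of the U1 snRNP, had 757, 935 and 541 CPM in MDH2 IP against 297, 393 and 258 CPM in SMI without overlap, a log2 fold change of 1.24 (SE 0.23, edgeR adjusted p = 0.00587) that was not called in the GC fit, at 0.68. Of 44 hnRNP and SR protein genes, which bind pre-mRNA, 6 (13.64%) rose and 4 (9.09%) fell. The 382 zinc finger genes had 16 higher and 36 lower and a median of -0.25, and in the GC fit 3 higher and 2 lower and a median of -0.06. Of 37 collagen and matrix genes 8 rose and 0 fell, and 28 immediate early genes had 5 higher and 1 lower. The median GC content of the matrix genes was 54.5%, and the GC fit called 0 of them, and 0 of the immediate early genes. For 59 DNA replication genes 1 rose and 0 fell, and for 54 histone genes 1 rose and 0 fell. Of the 54 histone genes 42 had a log2 fold change below 0, with a median of -0.17. In the GC fit the histone median was -0.55, with 0 called higher and 1 lower. The 16 glycolytic enzymes had 1 higher and 0 lower, the 35 proteasome genes 2 higher and 1 lower, and the 40 cytosolic chaperones 4 higher and 2 lower.

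**Figure D2:**
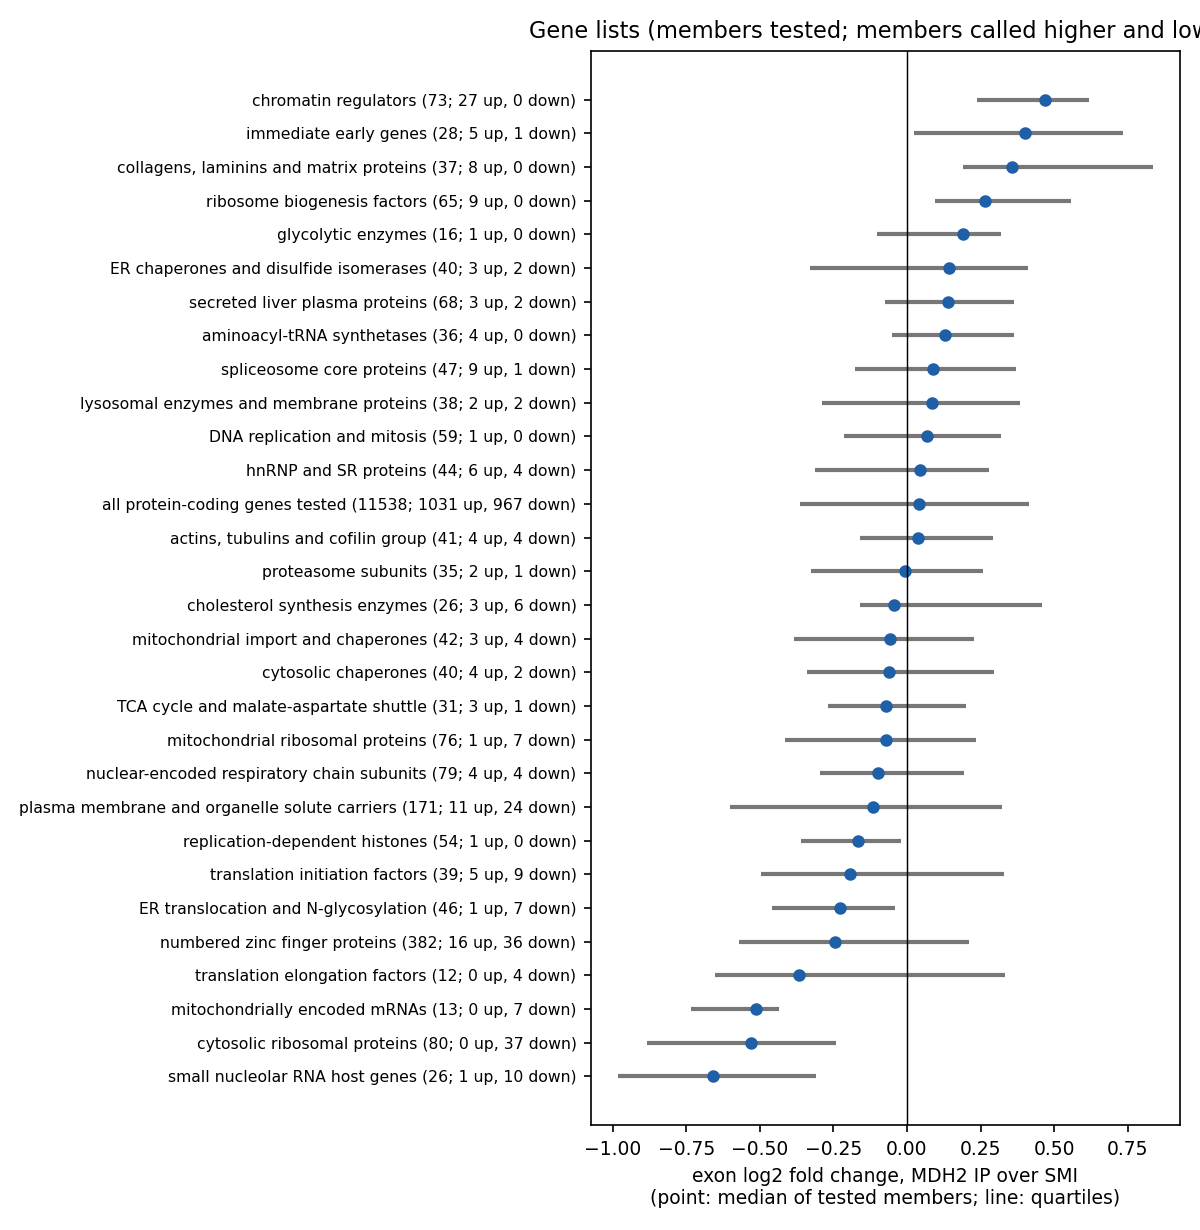
Median log2 fold change of each gene list, with the numbers of members that were higher and lower in MDH2 IP than in SMI at the exon level. Cytosolic ribosomal proteins at -0.53 and small nucleolar RNA host genes at -0.66 lie at the low end, and chromatin regulators at 0.47 lie at the high end.

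Small nucleolar RNA host genes, noncoding genes whose introns carry snoRNAs, were lower, with 10 of 26 lower and 1 higher against 10.7% and 8.6% of all genes, and a median of -0.66. The log2 fold change was -3.09 for SNHG3, -2.77 for SNHG25 and -2.10 for SNHG12, and SNHG22 rose by 1.22. Without SMI replicate 1, 6 host genes were lower. Of GAS5, another host gene, the exons had a log2 fold change of -0.30 that did not pass (edgeR adjusted p = 0.159). snoRNA genes themselves fell widely, with 118 lower and 5 higher of 219 tested and a median of -1.38. The class took 0.530% ± 0.161 of exon counts in MDH2 IP (SD, n = 3) and 1.36% ± 0.12 in SMI (n = 3). A host gene's windows can share bases with the snoRNA gene, and such counts cannot be told apart.

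The spliceosomal RNAs were far scarcer in MDH2 IP than in SMI. snRNA genes took 0.379% ± 0.013 of exon counts in MDH2 IP (SD, n = 3) and 4.72% ± 0.55 in SMI (n = 3), and 32 of 71 tested fell while 18 rose. RNU5B-1, the U5 snRNA, had 129.9, 159 and 184 CPM against 12006, 11959 and 9660.5 CPM, a log2 fold change of -6.15 (SE 0.22, edgeR adjusted p = 5.78e-07). RNVU1-7, a variant of the U1 snRNA, fell by 6.95 on the log2 scale. Every MDH2 IP library was far below SMI for both. Of the 18 that rose, the one with the most exon counts was RNU7-1, the U7 snRNA that processes histone mRNAs, at a mean of 38.2 CPM against 2.92 CPM, but it lies in an exon of the protein-coding gene C12orf57 on the same strand, and their counts cannot be told apart. RN7SL1, the RNA of the signal recognition particle, had 36.3, 40.8 and 56.7 CPM against 2778, 2034 and 2266 CPM, a log2 fold change of -5.73 (SE 0.24, edgeR adjusted p = 8.25e-07). 7SK, the RNA that holds the elongation factor P-TEFb, fell by 1.32 (SE 0.21, edgeR adjusted p = 0.00303).

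The numbered tRNA entries differed in direction by count and by share. Of 199 tested 131 fell and 22 rose, with a median of -2.64, and yet their summed share was higher in MDH2 IP at 0.961% ± 0.281 (SD, n = 3) than in SMI at 0.426% ± 0.086 (n = 3). Entry tRNA13032 had 2403, 3746 and 4636 CPM in MDH2 IP against 4.61, 8.92 and 5.15 CPM in SMI, a log2 fold change of 9.15 (SE 0.38, edgeR adjusted p = 8.25e-07). Entry tRNA20271 had 1729.9, 4518 and 2269 CPM against 13.5, 17.6 and 13.8 CPM. No isoacceptor is given for these entries in the table used, and near-identical tRNA genes share reads, so values of single entries are uncertain. lncRNA genes had 45 higher and 91 lower of 1051, with a median of -0.22.

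Both IP antibodies can be set beside SMI, and the comparisons share the 3 SMI libraries. The median log2 ratio of IgG IP to SMI was -0.72 for the ribosomal protein genes, 0.18 for the chromatin regulators, -0.18 for the mitochondrial messages, -1.36 for snoRNA genes and -0.67 for snRNA genes. Over all 11538 protein-coding genes tested, the median log2 ratio of IgG IP to SMI was -0.12. MDH2 IP lay above IgG IP for 6778 of these 11538 genes, with a median log2 ratio of 0.11. Set directly against IgG IP, the ribosomal protein genes had a median of 0.25, with 66 of 80 above 0. The chromatin regulators had a median of 0.32 against IgG IP, with 51 of 73 above 0. The mitochondrial messages had a median of -0.36, with 0 of 13 above 0. KMT2D had 1269, 1255 and 1274 CPM in IgG IP, above its MDH2 IP levels. KDM2A had 1567, 1676 and 1724 CPM in IgG IP, with a log2 ratio of MDH2 IP to IgG IP of 0.08 (edgeR adjusted p = 0.85). The IgG IP levels were scaled over all libraries, and those of MDH2 IP and SMI without IgG IP, so close levels cannot be ranked. MT-ND4 had 3661, 3888 and 4008 CPM in IgG IP, above every MDH2 IP library and below every SMI library. The log2 ratio of MDH2 IP to IgG IP was -0.70 for MT-ND4 (edgeR adjusted p = 0.0278) and -0.28 for MT-CO1 (edgeR adjusted p = 0.424). MT-RNR2 had 40621, 39955 and 39389.5 CPM in IgG IP, also below every SMI library. Its log2 ratio of MDH2 IP to IgG IP was -0.17 and did not pass (edgeR adjusted p = 0.681). RNU5B-1 had a mean of 220.5 CPM in IgG IP, near its level in MDH2 IP. BMS1 stood apart from these, with a log2 ratio of MDH2 IP to IgG IP of 1.29. Entry tRNA13032 had 490.5, 329 and 384 CPM in IgG IP, a log2 ratio of 3.19.

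The GC content of a gene's transcript moved with its fold change. In 5 equal bins of protein-coding genes, with median GC contents of 38.3%, 42.8%, 48.1%, 55.0% and 61.9%, the median log2 fold change of exon counts went from -0.48 through -0.22, -0.01 and 0.28 to 0.53. In the bin of lowest GC content 24 genes (1.04%) were higher and 587 (25.4%) lower, and in the bin of highest GC content 550 (23.8%) were higher and 4 (0.173%) lower. Spearman's rho across the 11538 genes was 0.646, with all genes read from the same 6 libraries. The median log2 ratio of IgG IP to SMI went from -0.61 to 0.68 over the same bins, and that of MDH2 IP to IgG IP from 0.17 to -0.13. The mean GC content behind an exon count was 49.0% to 49.3% in SMI, 50.6% to 51.1% in MDH2 IP and 51.5% to 52.3% in IgG IP. The GC fit called 169 protein-coding genes higher (1.46%) and 130 lower (1.13%), with 0.65% and 0.399% past 2-fold, of which 130 and 113 were among the calls above. In this fit 27 ribosomal protein genes were lower and 0 higher. With the replicate number added as a block, the GC offset gave 1541 higher and 1398 lower protein-coding genes. The part of PCR cycles in the relation with GC content was not tested.

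Coding length moved with the fold change in a weaker way. In 5 equal bins with median coding lengths of 516, 969, 1407, 2025 and 3568 nt, the median log2 fold change was -0.12, -0.05, -0.01, 0.06 and 0.27. The share of higher genes rose from 3.86% in the shortest bin to 17.7% in the longest, and the share of lower genes went from 11.8% to 3.42%. In the GC fit the medians of the shortest and longest bins were -0.15 and 0.21. The median log2 ratio of MDH2 IP to IgG IP went from 0.06 to 0.28, and that of IgG IP to SMI from -0.20 to -0.06. Spearman's rho between coding length and exon log2 fold change was 0.214. The genes called higher had a median coding length of 2130 nt, a 3′UTR of 846 nt and 15 exons, and those called lower had 1125 nt, 3398 nt and 8 exons, against 1392 nt, 1258 nt and 9 exons for genes not called.

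**Figure D3:**
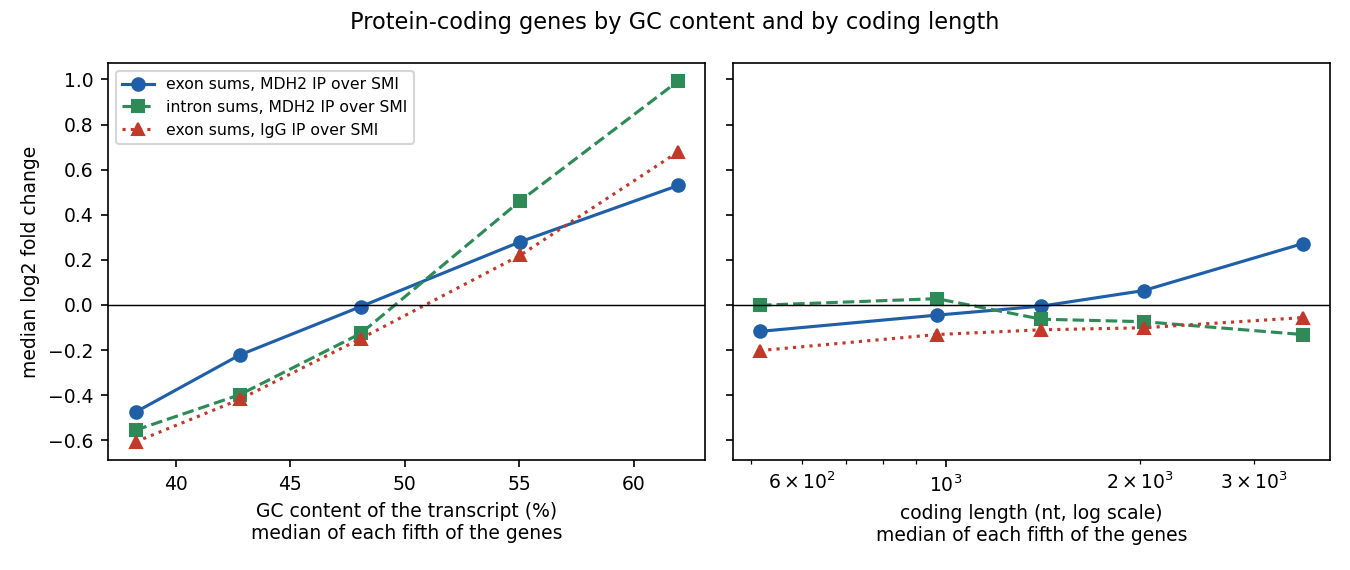
Median log2 fold change of protein-coding genes in 5 equal bins of transcript GC content and of coding length, for exon and intron counts of MDH2 IP against SMI, and for the other contrasts named in the legend. The exon medians climb from -0.48 to 0.53 with GC content and from -0.12 to 0.27 with coding length.

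Exons held a larger part of the cross-link counts in MDH2 IP than in SMI. Of all window counts, 53.6%, 59.9% and 55.1% lay in exon windows in the MDH2 IP libraries and 43.9%, 49.8% and 45.7% in SMI. The means were 56.2% ± 3.3 (SD, n = 3) and 46.5% ± 3.0 (n = 3), and no MDH2 IP library reached down to an SMI library. The difference of 9.70 percentage points had a two-sided exact permutation p of 0.1, the smallest that 3 against 3 libraries allow. IgG IP had the lowest share, at 38.6%, 34.97% and 31.04%. With protein-coding genes alone the difference was 13.2 points, and with 1 library left out it ranged from 7.84 to 11.4 points.

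**Figure D4:**
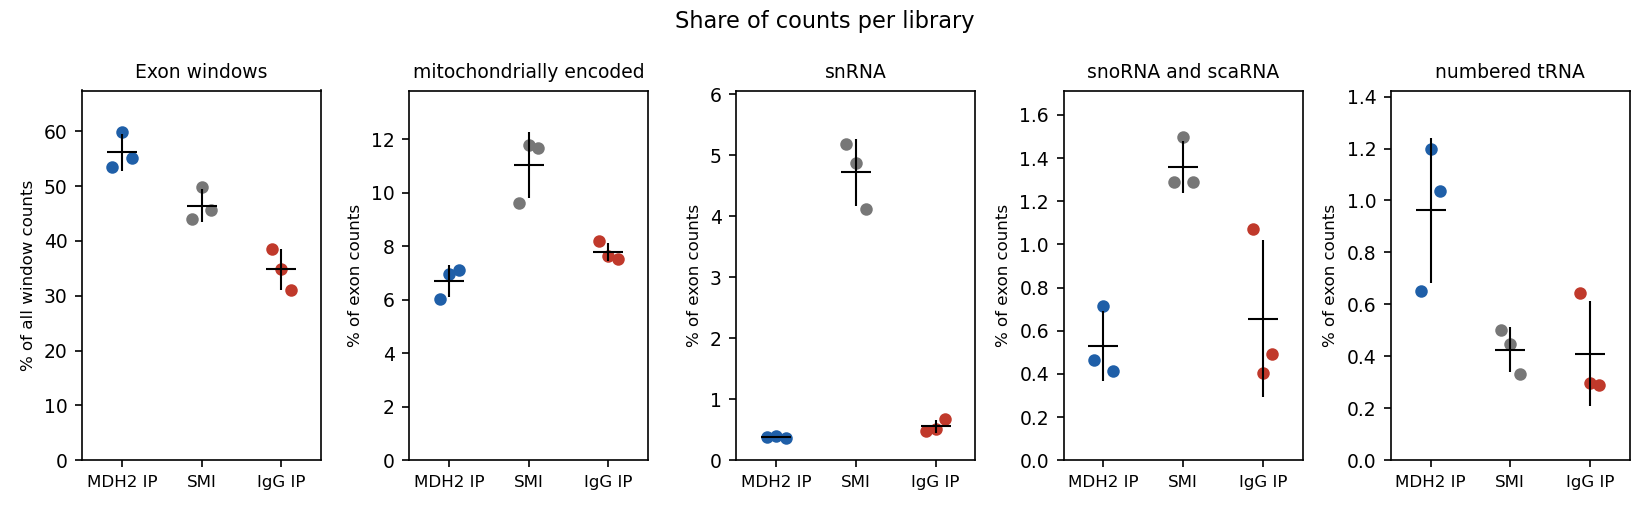
Share of window counts in exons, and shares of exon counts taken by gene groups, in percent, with 1 point for each of 3 SMI, 3 MDH2 IP and 3 IgG IP libraries and a bar at the mean. The exon share is 53.6% to 59.9% in MDH2 IP, 43.9% to 49.8% in SMI and 31.04% to 38.6% in IgG IP.

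The intron sums of the same genes gave more calls than the exon sums. Of 14050 genes tested on introns 2437 (17.3%) were higher and 2149 (15.3%) lower, with 1683 higher and 241 lower (1.72%) by at least 2-fold. Among the 11777 protein-coding genes of these, 18.2% were higher and 16.2% lower. Without SMI replicate 1 the calls over all genes were 1599 and 1091, and without MDH2 IP replicate 1 they were 1612 and 1158. Among the 10580 protein-coding genes tested on both, 575 were higher and 434 lower on both, while 48 were higher on exons and lower on introns and 18 the reverse. A further 345 were higher and 484 lower on exons only, and 1342 were higher and 1400 lower on introns only. The median intron log2 fold change went from -0.56 in the bin of lowest GC content to 0.99 in the highest, a wider span than that of exons.

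The exon-to-intron ratio was then tested as an interaction, with exons and introns scaled apart. Of 11414 genes 1239 (10.9%) had a higher ratio and 1510 (13.2%) a lower ratio in MDH2 IP than in SMI, and among protein-coding genes 11.3% and 13.5%. This split depends on the scaling, since exons and introns on a single library size gave 4428 higher (38.8%) and 276 lower (2.42%) with a median log2 ratio change of 0.59. With limma on the log2 ratios of each library, 477 were higher and 723 lower, and without SMI replicate 1 the test gave 799 with a higher ratio. The values below are therefore relative to the typical gene. Ribosomal protein genes had a lower ratio in 46 and a higher ratio in 3 of those tested, as their introns had a median log2 fold change of 0.41 over 69 genes while their exons were at -0.53. RPLP0 had an intron log2 fold change of 0.34 and a ratio change of -1.97 (edgeR adjusted p = 1.07e-05), and RPS23 had 1.05 and -2.31 (edgeR adjusted p = 7.42e-06). Chromatin regulators were reversed, with a higher ratio in 35 and a lower ratio in 9, a median intron log2 fold change of -0.24 and a median ratio change of 0.54. KDM2A had an intron log2 fold change of -0.48 and a ratio change of 1.19 (edgeR adjusted p = 9.29e-07). The plasma protein genes had 0 with a higher and 14 with a lower ratio, and the solute carriers 2 and 38.

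Single genes showed how far exons and introns could part. EIF4A2, an RNA helicase of translation initiation, had 477, 498 and 455 exon CPM in MDH2 IP against 1175, 1273 and 1283 CPM in SMI, with no overlap. Its exon log2 fold change was -1.38, its intron log2 fold change 1.89 and its ratio change -3.28 (SE 0.21, edgeR adjusted p = 5.34e-11), the lowest ratio change among the protein-coding genes ranked. snoRNA genes lie in annotated exons of EIF4A2, and without its 3 fullest windows the exon log2 fold change was -0.75. APOB had a ratio change of -1.26 (edgeR adjusted p = 2e-06) with an intron log2 fold change of 0.61. ACTB, the cytoskeletal beta-actin, had an exon log2 fold change of 0.04, an intron log2 fold change of 1.78 and a ratio change of -1.74. GAS5 had an intron log2 fold change of 1.54 and a ratio change of -1.84 (edgeR adjusted p = 5.84e-08). At the other end RCC1, the exchange factor of Ran, had an intron log2 fold change of -2.59 and a ratio change of 2.92, but it shares bases with SNHG3 and holds SNORA73A and SNORA73B, and SNORA73B itself fell by 4.19. LRP1B, a large receptor of the LDL receptor family, had a ratio change of 1.92.

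**Figure D5:**
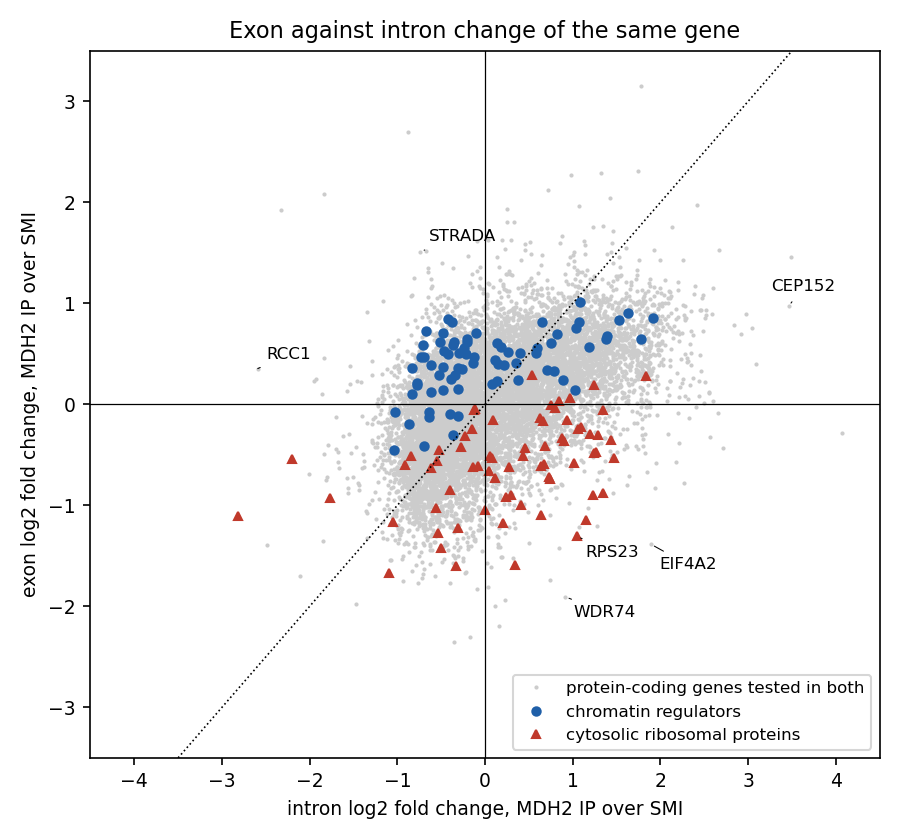
Exon log2 fold change against intron log2 fold change of MDH2 IP over SMI for protein-coding genes tested on both, 1 point a gene, with members of 2 lists and single genes marked. Ribosomal protein genes lie mostly below 0 on exons with an intron median of 0.41, and chromatin regulators lie mostly above 0 on exons with an intron median of -0.24.

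At the top of the exon ranking of protein-coding genes with a mean of at least 50 counts per library stood SH3BGR, whose MDH2 IP libraries held 239, 200 and 235 counts while SMI held 0, 3 and 1. Its 3 fullest windows held 98.2% of these counts, so the value describes a single place in the gene, and it missed the count minimum when any MDH2 IP library was left out. PLIN4, a lipid droplet coat protein, rose by 1.97, MYH3, a myosin heavy chain, by 1.96, and ADM, the peptide hormone adrenomedullin, by 1.64 on the log2 scale. DNAH6, a heavy chain of axonemal dynein, had 53.0, 37.0 and 47.0 CPM in MDH2 IP against 8.64, 15.02 and 20.4 CPM in SMI and 10.7, 13.02 and 9.70 CPM in IgG IP. Its MDH2 IP libraries were above all others, with a log2 fold change of 1.63 against SMI and a log2 ratio of 2.06 to IgG IP. ZBTB7A, a transcription factor, rose by 1.54, NOC4L by 1.52 and LIME1, a membrane adaptor of lymphocyte signalling, by 1.52. In the GC fit the calls of PLIN4, MYH3, DNAH6 and ZBTB7A held, and those of ADM (1.30), NOC4L (0.95) and LIME1 (0.88) did not. NBPF8 rose by 1.75, though it belongs to a family of near-identical copies that share reads and is uncertain. MLLT11 rose by 1.62, but 58.1% of its counts lay in 3 windows, and without them its log2 fold change was -0.49.

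At the bottom stood PDE6A, a photoreceptor phosphodiesterase, whose MDH2 IP libraries held 3, 0 and 0 counts while SMI held 78, 130 and 139, with 98.3% of all in 3 windows, and it missed the count minimum when any SMI library was left out. WDR74, a ribosome assembly factor, had 1552, 1763 and 1296 CPM against 5862, 6434 and 4970.1 CPM, a log2 fold change of -1.91. Its groups did not overlap, but the snRNA gene RNU2-2P lies in an exon of WDR74. RNU2-2P had 1463, 1639 and 1160.5 CPM against 5512, 6058 and 4562 CPM, and its counts and those of WDR74 cannot be told apart where their bases are shared. The log2 fold change was -1.83 for GNG12, a G protein subunit, -1.70 for TMEM167A, -1.68 for KITLG, the ligand of the KIT receptor, and -1.65 for SLC26A2, a sulfate transporter, of which the last was not called in the GC fit (-1.30). RPL39, TPT1 and RPL21 were also among the 10 lowest genes.

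Among the lncRNA genes some differences were large. HOTAIR, an RNA of the HOXC locus, had 1.30, 1.68 and 0.877 CPM in MDH2 IP against 581, 244 and 189.8 CPM in SMI. Its 3 fullest windows held 71.4% of its counts. HOTAIR passed the count minimum through SMI alone and missed it when any SMI library was left out. Its call held in the 3 fits with all SMI libraries. LINC01593 held 215, 207 and 258 counts in the MDH2 IP libraries while all SMI libraries were at 0. It passed the count minimum through MDH2 IP alone and missed it when any MDH2 IP library was left out. With a floor of 3 counts per library in place of 0 it was at least 72.6-fold higher. LINC01593 stood at 113, 37.4 and 19.4 CPM in IgG IP. Of the other RNAs named with MDH2 in the study, PABPC1, the cytoplasmic poly(A)-binding protein, had an exon log2 fold change of 0.27 (edgeR adjusted p = 0.237). The paper lists PABPC1 among its top mRNA hits from single enriched windows, a measure unlike the whole-gene sum used here. SCN1A, a neuronal sodium channel on which the paper detected no sites, had too few exon counts to be tested.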

How the data were processed

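Deposited values were whole-number counts of cross-link sites in overlapping windows of 50 nt, which the authors made after trimming with cutadapt, alignment with STAR to hg38 and removal of PCR duplicates by molecular identifiers, keeping reads with up to 10 alignments. The table gives no window coordinates. Members and gene lists were chosen with earlier results of these data known.

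Counts of exon or intron windows were summed per gene identifier. Genes were named through GENCODE annotation (33751 of 34950 Ensembl identifiers, 96.57%; a further 359 are numbered tRNA entries), and GC content and lengths came from the same annotation. Genes reaching 10 counts in 3 or more of 6 libraries entered edgeR 4.0.16 (R 4.3.3; quasi-likelihood, TMM, Benjamini-Hochberg adjusted p of at most 0.05) over all genes tested, for exons, introns and the exon-to-intron interaction. SE is the log2 fold change divided by the square root of F. Ratios to IgG IP came from the same kind of fit. CPM of IgG IP were TMM-scaled over all libraries, and CPM of MDH2 IP and SMI without IgG IP. Shares were compared by exact permutation. The GC fit, chosen after seeing the data, used an offset per library over 20 bins of transcript GC content in protein-coding genes.

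The text names protein-coding genes with a mean of at least 50 counts per library that were called without overlap between the groups, namely the 10 highest and 10 lowest on exons and the extremes of the ratio, genes named by the study, genes with the most counts and members of the lists. Small RNA, lncRNA and promoter examples, and the members shown by library, were picked after their values were seen, mostly those with the most counts or largest changes. On simulated data with the exon design, 26.8% of 97 genes changed 2-fold and 81.2% of 96 changed 4-fold were recovered, with 9 false calls among 13564 genes. The simulation held no relation with GC content and no deviation shared by libraries. Its false calls therefore do not measure those in the real data. In each group the replicates differed by more than counting noise. A site counts in up to 3 windows, so sums overstate independent sites. One gene that the rule names is not reported here. Alternatives were DESeq2 1.42.0 and limma 3.58.1, other scalings, filters and libraries.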

Additional observations from a re-analysis of the deposited data

How the results depend on the processing

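DESeq2's size factors or its Wald test, TMM factors from protein-coding genes, a minimum of 30 counts or of 1 count and the use of windows that do not overlap left each count of calls within 1.5 times. Total counts as library size gave 1965 higher genes, 694 of at least 2-fold, and 43 chromatin regulators. The fit of all 9 libraries gave 917 lower genes and 6 lower host genes. On a single library size the exon-to-intron ratio was higher for 4428 and lower for 276 genes, and limma on log2 ratios gave 477 and 723.

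Same-numbered MDH2 IP and SMI libraries deviated together with correlations of 0.082, 0.508 and 0.518, and each library correlated best with its own number. The paper took SMI from part of the input before the IP, so same-numbered libraries may share a lysate. The labels do not state such pairs, and the main fit did not use them. With a replicate block the counts were 2940 higher and 2875 lower genes, 3899 lower on introns, 56 ribosomal protein genes, 12 mitochondrial messages and 19 host genes lower, and 51 chromatin regulators higher.

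Alternatives chosen after seeing the data changed more. Without the 3 fullest windows of each gene 234 genes were higher and 532 lower by at least 2-fold. With a GC offset 169 were higher and 130 lower, 75 and 46 of them by at least 2-fold, and 7 chromatin regulators were higher. The GC offset with the replicate block gave 1541 higher and 1398 lower protein-coding genes, 135 and 107 of them by at least 2-fold. It also gave 57 lower ribosomal protein genes and 45 higher chromatin regulators. Signs changed for MLLT11 without its fullest windows (-0.49), for COL18A1 (-0.10, and -0.10 with the block) and ZNF444 (-0.016 and -0.018) with the GC offset, and for H1-4 (-0.29), ACTB (-0.30) and FASN (-0.39) with the GC offset, which were called with the block added (-0.29, -0.30 and -0.36). Values that passed no test also changed sign, among others for FN1 (-0.045) and SRSF1 (0.11) with the GC offset and for RPL41 (-0.009) without its fullest windows. The cause was not tested.

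With 1 library left out, exon calls ranged from 387 to 1054 higher and 652 to 1366 lower, those of at least 2-fold from 205 to 361 and 488 to 797, intron calls from 1599 to 2316 and 1091 to 2036, and ratio calls from 799 to 1273 and 1134 to 1423. The lists ranged from 21 to 42 ribosomal protein genes, 3 to 7 mitochondrial messages, 6 to 11 host genes and 6 to 29 chromatin regulators, and the exon share difference from 7.84 to 11.4 points. In simulated data 26.8% of 97 genes changed 2-fold were recovered, so changes below this size were often missed, and for the ratio 2.6% of 76.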
